A study of Mus musculus with 6 samples.

Results

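The 10 genes described here act in or mark heart capillaries and the uptake of fatty acids there: *Fabp4*, *Fabp5*, *Cd36*, *Lpl*, *Aqp1*, *Car4*, *Tcf15*, *Meox2*, *Rgcc* and *Cyyr1*. They were chosen by symbol, and all 10 were found among the 34745 genes of the deposited expression table. The libraries are RNA-seq of cardiac fibroblasts isolated 7 days after MI from left ventricles of male mice aged 8 to 10 weeks, with the left anterior descending coronary artery tied off permanently. The 3 libraries labelled KO came from KDM5B-knockout mice, in which CRISPR/Cas9 removed the bases that hold the JmjC domain of *Kdm5b* and shifted the reading frame, and the 3 labelled WT came from littermates. All mice carried the infarct, so no sham group enters these comparisons. The knockout is of the whole animal and not of fibroblasts alone, and no sort or gate on the isolated cells is described.

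Capillary endothelial cells are the gate through which fatty acids reach heart muscle. Lipoprotein lipase, made by muscle and other cells, is anchored on the capillary wall by GPIHBP1 and frees fatty acids from circulating triglycerides, CD36 takes them up, and the fatty acid binding proteins FABP4 and FABP5 carry them inside the cell. The transcription factors MEOX2 and TCF15 act as a pair in heart endothelium and are known to drive *Cd36* and *Lpl* there, while the water channel AQP1 and the carbonic anhydrase CAR4 sit on the capillary surface. Several of these genes are not restricted to endothelium, since macrophages, fibroblasts, muscle and fat cells also use *Lpl*, *Cd36*, *Fabp4* or *Fabp5*.

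Library totals ran from 12025403 to 15329427 counts, and 3 counts, taken as the floor for a count of 0, equal 0.249 CPM (counts scaled to a common library total) in the smallest library. The targeted gene, *Kdm5b* (ENSMUSG00000042207), had TMM-normalized CPM of 98.1, 107 and 105 under KO and 108, 129 and 123 under WT, a log2 fold change of -0.22 (SE 0.07, adjusted p = 0.0574, edgeR). *Kdm5b* was thus still counted in every KO library and its difference missed the threshold, so groups are called by their labels. Reads inside and outside the deleted bases were not told apart here. Every library held both *Xist*, at 90.5 to 131 CPM, and the Y-linked *Ddx3y*, at 64.5 to 90.8 CPM, although the animals are described as male, and since this was so in all 6 no result can be given without such libraries. The labelled cell type was present in force, with 12 of 12 fibroblast markers tested and a summed level of 3181 to 4620 FPKM (the authors' length-scaled unit), and markers of endothelial cells, macrophages and cardiomyocytes were present too. Nothing states that replicates came from separate animals, so the p-values measure the spread between these libraries, which may be technical.

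To ask which of the 10 genes differed between the labels, counts were tested over all 14084 genes that passed edgeR's expression filter, with TMM normalization. Of the 8 members tested, *Fabp4* rose, *Lpl*, *Cd36* and *Fabp5* fell, and *Aqp1*, *Meox2*, *Rgcc* and *Cyyr1* did not pass an adjusted p of 0.05 (quasi-likelihood test, Benjamini-Hochberg over all genes tested). Thus 1 of 8 was called higher (12.5%) and 3 of 8 lower (37.5%), where the background over the 14084 genes was 17.7% called higher and 12.5% called lower, or 30.2% in either direction. The values of 4 of the 8 (50.0%) did not overlap between the labels, 1 with higher and 3 with lower KO values. Over all genes tested this share was 47.0%, made of 24.7% higher and 22.4% lower. The median log2 fold change was -0.15 over the 8 members and -0.02 over all genes tested. *Car4* and *Tcf15* had at most 1 count in any library and could not be tested.

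**Figure D1:**
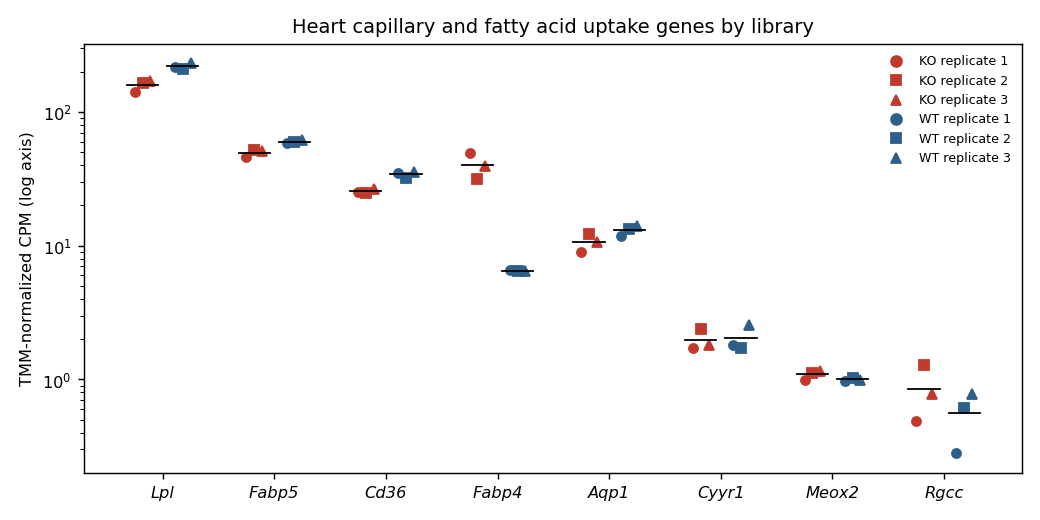
TMM-normalized CPM (log axis) of the 8 tested members in each of the 6 libraries, with 3 KO libraries in red, 3 WT libraries in blue, a marker shape for each replicate number and a black bar at the mean of each label. *Fabp4* lies at 31.7 to 49.5 CPM under KO and 6.47 to 6.58 under WT, *Lpl*, *Fabp5* and *Cd36* lie lower under KO without overlap on this scale, and the other 4 genes overlap.

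*Fabp4* (ENSMUSG00000062515, chr3:10204088-10208576, minus strand, mm10) encodes the fatty acid binding protein of adipocytes, capillary endothelium and macrophages. It had 604, 422 and 607 counts in KO replicates 1 to 3 and 94, 95 and 91 counts in WT replicates 1 to 3. Every KO library lay well above every WT library. The normalized levels were 49.5, 31.7 and 39.1 CPM under KO and 6.58, 6.48 and 6.47 CPM under WT. The rise was 6.14-fold, a log2 fold change of 2.62 (SE 0.17, adjusted p = 2.4e-05, edgeR). An exact two-sided permutation test over the libraries gave p = 0.1, the smallest that 3 against 3 allow. Of the 14084 genes tested, 285 (2.02%) had a larger log2 fold change. The WT libraries were nearly alike, with a coefficient of variation in FPKM of 1.14%, and the KO libraries spread by 22.8%.

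*Fabp5* (ENSMUSG00000027533, chr3:10012548-10016607, plus strand) lies near *Fabp4* on the same chromosome and encodes a protein of the same family, found in skin, macrophages and endothelium. Its counts were 563, 691 and 789 under KO and 838, 868 and 868 under WT. After normalization these were 46.1, 51.8 and 50.9 CPM under KO and 58.7, 59.2 and 61.7 CPM under WT. The labels did not overlap, and KO replicate 1 was lowest. *Fabp5* fell by 0.27 on the log2 scale (SE 0.07, 17.1% lower, adjusted p = 0.0157, edgeR, exact two-sided permutation p = 0.1). The call is lost without WT replicate 3 (adjusted p = 0.0601). It is also lost, with a value of 0.10 in the other direction, when libraries are scaled on macrophage and cardiomyocyte markers, a scaling that lifts the median of all genes from -0.02 to 0.36.

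The pair is shown as sequence because the direction of the change separates them although the proteins are of one family. The coding sequences hold 396 bases in *Fabp4* and 405 in *Fabp5*. Aligned end to end with gaps allowed, they share 60.6% of bases at the positions without a gap, with no identical run over 12 bases. The stretch of 150 bases printed below is the most alike, with 99 identical and 51 differing bases, taken from bases 211 to 360 of the coding sequence of *Fabp4* and 217 to 366 of *Fabp5* (GENCODE transcripts, GRCm38, written 5′ to 3′ on the coding strand). Capitals mark the bases that differ between the 2 genes.
Fabp4: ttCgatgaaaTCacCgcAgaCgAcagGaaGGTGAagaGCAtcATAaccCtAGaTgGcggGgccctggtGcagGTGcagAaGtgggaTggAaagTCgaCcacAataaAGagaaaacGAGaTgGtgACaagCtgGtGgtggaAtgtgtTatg
Fabp5: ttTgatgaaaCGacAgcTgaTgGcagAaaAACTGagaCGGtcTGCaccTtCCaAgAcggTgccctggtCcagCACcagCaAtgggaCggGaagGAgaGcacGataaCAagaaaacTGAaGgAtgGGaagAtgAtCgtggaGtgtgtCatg
With differences this close together, reads of 1 gene carry many mismatches against the other. *Fabp5* is less clear-cut in another way. Against its coding sequence alone, with the untranslated bases left out, 5 genes in the annotation match at 93.6% to 98.3% over 336 to 407 bases. Only *Fabp5l2* of these is listed in the table, with at most 1 count in any library, so the part of the *Fabp5* count that such copies share is uncertain.

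The ratio of *Fabp4* to *Fabp5* within a library does not depend on scaling. The count ratio was 1.07, 0.611 and 0.769 in the KO libraries and 0.112, 0.109 and 0.105 in the WT libraries. The difference was 2.86 on the log2 scale, or 7.28-fold, without overlap (exact two-sided permutation p = 0.1, 0.3 adjusted over 3 ratios). With 3 libraries against 3, no smaller exact p was possible. In the WT libraries *Fabp5* counts exceeded *Fabp4* counts many times over, and under KO the counts were of the same order.

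*Lpl* (ENSMUSG00000015568, chr8:68880491-68907448, plus strand) encodes lipoprotein lipase, and *Cd36* (ENSMUSG00000002944, chr5:17781690-17888801, minus strand) the fatty acid translocase. Both fell in the KO libraries by about the same factor. *Lpl* had 1727, 2199 and 2639 counts under KO and 3107, 3054 and 3241 under WT. These were 141, 165 and 170 CPM under KO and 217, 208 and 230 CPM under WT, so every KO library lay below every WT library and KO replicate 1 was again lowest. *Lpl* fell by 0.46 on the log2 scale (SE 0.08, 27.4% lower, adjusted p = 0.00275, edgeR, exact two-sided permutation p = 0.1).

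*Cd36* had 306, 333 and 410 counts under KO and 502, 467 and 501 under WT. The normalized levels of *Cd36* were 25.1, 25.0 and 26.4 CPM under KO and 35.1, 31.9 and 35.6 CPM under WT. The 3 KO libraries were close together and all below the WT libraries. *Cd36* fell by 0.42 on the log2 scale (SE 0.08, 25.4% lower, adjusted p = 0.00401, edgeR, exact two-sided permutation p = 0.1). Within a library the ratio of *Cd36* to *Lpl* differed by 0.04 on the log2 scale between the labels, with overlap (exact two-sided permutation p = 0.8, also 0.8 adjusted over 3 ratios). Both calls are lost with libraries scaled on macrophage and cardiomyocyte markers, where *Lpl* was at -0.09 (adjusted p = 0.385) and *Cd36* at -0.05 (adjusted p = 0.693).

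The falls of *Lpl* and *Cd36* were close in size to the median of all 1760 genes called lower, -0.38, and to the medians of marker lists of other cell types. The median log2 fold change was -0.42 over 12 fibroblast markers, of which 12 fell, and -0.42 over 11 cardiomyocyte markers, of which 7 fell. Of 12 macrophage markers 6 fell and 2 rose, with a median of -0.39. *Col1a1*, a collagen gene of fibroblasts, was at -0.44, *Lyz2*, the lysozyme of macrophages, at -0.42, and *Myh6*, a cardiac myosin, at -0.45. *Cd68*, a lysosomal protein of macrophages and among the 3 most abundant markers of that list, rose by 1.38 on the log2 scale. The summed level of the macrophage list ran from 797 to 828 FPKM under KO and from 984 to 1056 under WT, with *Cd163* at no more than 3 counts in any library. Which cells gave the *Lpl*, *Cd36* and *Fabp5* reads was not tested, and in bulk RNA fewer cells of a type and less RNA per cell cannot be told apart.

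*Aqp1* (ENSMUSG00000004655, chr6:55336432-55348555, plus strand), the water channel of capillary endothelium and red cells, had 110, 164 and 166 counts under KO and 169, 196 and 199 under WT. Its levels were 9.01, 12.3 and 10.7 CPM under KO and 11.8, 13.4 and 14.1 CPM under WT. KO replicate 2 lay above WT replicate 1, so the labels overlapped. The log2 fold change was -0.30 (SE 0.14, adjusted p = 0.147, edgeR, exact two-sided permutation p = 0.2) and did not pass.

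*Car4* (ENSMUSG00000000805, chr11:84957786-84966044, plus strand), a carbonic anhydrase bound to the capillary surface, had 1 count in WT replicate 1 and 0 in the other 5 libraries. *Tcf15* (ENSMUSG00000068079, chr2:152143561-152149097, plus strand), a basic helix-loop-helix factor, had 1 count in KO replicate 3 and 0 in the others. Both lie under the floor of 3 counts in every library, so no fold is given and a difference was not detectable at this depth.

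*Meox2* (ENSMUSG00000036144, chr12:37108540-37179534, plus strand), the homeobox partner of TCF15, was detected in every library at a low level. Its counts were 12, 15 and 18 under KO and 14, 15 and 14 under WT. The labels overlapped, with a log2 fold change of 0.13 (SE 0.26, adjusted p = 0.768, edgeR, exact two-sided permutation p = 0.3). *Meox2* was thus read from at most 18 counts in a library, and *Tcf15* from at most 1.

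For 6 of the 10 members, *Cd36*, *Aqp1*, *Car4*, *Meox2*, *Rgcc* and *Cyyr1*, a promoter sequence was at hand (RefSeq, GRCm38.p6), and the 250 bases before the RefSeq start were searched on both strands. The letters searched were CANNTG, the E-box read by basic helix-loop-helix factors such as TCF15, TAATTA, a core read by homeobox factors such as MEOX2, and AGGTCA, a motif of nuclear receptors such as PPARG. Among 32851 promoters of that length, 66.2% hold the E-box letters, 4.84% TAATTA and 14% AGGTCA. The promoters of *Cd36*, *Aqp1* and *Meox2* each held 1 E-box match, those of *Car4*, *Rgcc* and *Cyyr1* held 0, and TAATTA was in none of the 6. AGGTCA was found in *Cd36* alone, as 1 match on the reverse strand. The stretches of 3 genes are printed, *Cd36* as a known target of the MEOX2 and TCF15 pair that fell, and *Aqp1* and *Car4* as capillary surface genes that differ in level, each 5′ to 3′ on the gene's own strand with E-box letters in capitals.
Cd36, chr5:17835897-17836146, minus strand: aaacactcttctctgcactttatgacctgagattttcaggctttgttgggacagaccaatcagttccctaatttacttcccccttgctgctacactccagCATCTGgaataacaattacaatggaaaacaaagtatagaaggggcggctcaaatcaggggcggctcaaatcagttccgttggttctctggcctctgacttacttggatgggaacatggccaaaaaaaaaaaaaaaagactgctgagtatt
Aqp1, chr6:55336049-55336298, plus strand: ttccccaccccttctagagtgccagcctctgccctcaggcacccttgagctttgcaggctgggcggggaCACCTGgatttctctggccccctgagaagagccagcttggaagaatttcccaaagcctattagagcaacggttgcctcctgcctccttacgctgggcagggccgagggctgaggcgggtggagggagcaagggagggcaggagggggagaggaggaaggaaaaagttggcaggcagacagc
Car4, chr11:84957504-84957753, plus strand: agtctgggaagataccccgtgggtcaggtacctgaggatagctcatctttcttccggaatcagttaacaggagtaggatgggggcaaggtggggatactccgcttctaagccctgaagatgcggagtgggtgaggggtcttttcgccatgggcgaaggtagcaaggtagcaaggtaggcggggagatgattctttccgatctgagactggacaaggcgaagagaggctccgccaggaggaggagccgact
The *Cd36* and *Cyyr1* stretches lie inside the spans that the table gives for these genes, which reach further upstream, and the *Rgcc* stretch overlaps the end of its span, so the bases before other starts were not searched. A match is a description of letters, and no binding was measured in these libraries.

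*Rgcc* (ENSMUSG00000022018, chr14:79288756-79301645, minus strand), a regulator of the cell cycle, had 6, 17 and 12 counts under KO and 4, 9 and 11 under WT. Its libraries overlapped and spread widely within each label, with a log2 fold change of 0.60 (SE 0.49, adjusted p = 0.391, edgeR, exact two-sided permutation p = 0.5). *Cyyr1* (ENSMUSG00000041134, chr16:85421533-85553397, minus strand), a small membrane protein rich in cysteine and tyrosine, had 21, 32 and 28 counts under KO and 26, 25 and 36 under WT. The labels overlapped fully, with a log2 fold change of -0.04 (SE 0.26, adjusted p = 0.929, edgeR, exact two-sided permutation p = 0.7). The *Rgcc* to *Cyyr1* ratio differed by 0.61 on the log2 scale, with overlap (exact two-sided permutation p = 0.3, 0.45 adjusted over 3 ratios). Leaving out 1 library moved this ratio from 0.28 (without WT replicate 1) to 0.84 (without WT replicate 2), and the log2 fold change of *Rgcc* from 0.21 (without KO replicate 2) to 0.91 (without WT replicate 3). The ratios planned for *Tcf15* to *Meox2* and *Car4* to *Aqp1* were not computed, as *Tcf15* and *Car4* were under the floor.

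Levels of different genes were compared per length. The gene length behind the deposited FPKM exceeded the longest protein-coding transcript for several members, at 5127 against 896 bases for *Fabp4* and 4225 against 987 for *Fabp5*. For these 2 genes it equals the summed length of their 2 annotated transcripts. For *Lpl* it was 7661 against 4115 bases and for *Cd36* 8348 against 3399, while *Aqp1*, *Meox2*, *Rgcc* and *Tcf15* were the same by either length. Levels between genes are therefore given as CPM per kilobase of the longest protein-coding transcript, a choice made after seeing the data. On this scale *Fabp5* was the highest member under either label, at a mean of 60.7 under WT and 50.3 under KO.

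Under WT *Lpl* followed at 53.2, then *Cd36* at 10.1, *Fabp4* at 7.27 and *Aqp1* at 4.99, each apart from its neighbour beyond the range of the libraries. Under KO *Fabp4* stood at 44.7, between *Fabp5* and *Lpl* at 38.6, and its range overlapped with both. *Cd36* followed at 7.50 and *Aqp1* at 4.06. *Rgcc* was at 0.922 under KO and 0.609 under WT, *Meox2* at 0.462 and 0.424, and *Cyyr1* at 0.361 and 0.371. Under WT neighbours among these 3 genes overlapped, and under KO *Meox2* and *Cyyr1* did. On this scale *Fabp4* stood below *Cd36* under WT and above it under KO. By deposited FPKM the order under WT was *Lpl* at 28.2, *Fabp5* at 14, *Aqp1* at 4.93, *Cd36* at 4.05 and *Fabp4* at 1.25, so that *Fabp4* lay below *Aqp1* and not above it. By deposited FPKM the order under KO was *Lpl* at 21.0, *Fabp5* at 11.9, *Fabp4* at 7.91, *Aqp1* at 4.10 and *Cd36* at 3.09, and the ratio of *Fabp4* to *Lpl* was 0.377 in place of 1.16. On either scale *Fabp4* passed *Cd36*, and its place beside *Lpl* under KO and *Aqp1* under WT depends on the gene length used.

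Since these genes are used by capillary endothelium, they were set beside 15 core endothelial genes, such as the junction genes *Cdh5* and *Pecam1* and the receptor *Tie1*. All 15 core genes rose, by 0.43 to 4.23 on the log2 scale with a median of 2.72, and their summed level was 300.1 to 424 FPKM under KO and 65.8 to 66.8 under WT. *Cdh5* was at 2.31, *Tie1* at 3.07 and *Pecam1* at 3.98. Of the 15, 8 rose more than *Fabp4* and 7 less. No other tested member came near the median of the core genes, and *Lpl*, *Cd36* and *Fabp5* moved in the opposite direction with TMM normalization, *Fabp5* not so under the marker scaling.

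**Figure D2:**
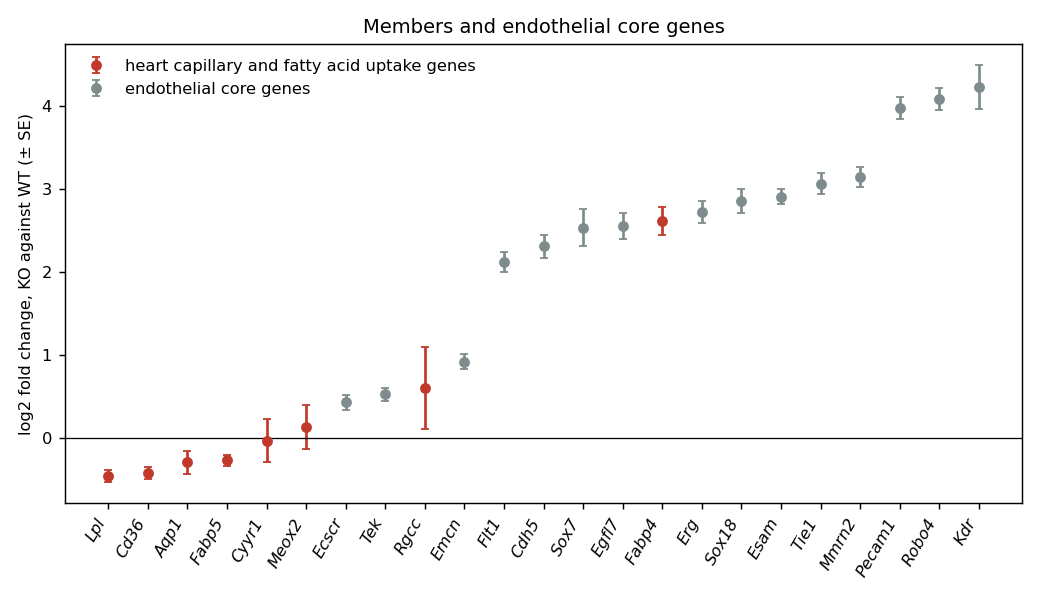
Log2 fold change of KO against WT (vertical axis) with its standard error for the 8 tested members, in red, and the 15 endothelial core genes, in grey, ordered by value (3 libraries per label). *Fabp4*, at 2.62, sits among the core genes, and the other members lie from -0.46 to 0.60.

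Each member was then given per 1000 units of the summed level of the core genes in the same library, as a description without a test. The core sum itself was 5.36 times higher under KO in the mean, so a gene at 1 level in all libraries would stand 5.26 times lower under KO on this scale. *Fabp4* stood at 74.5, 66.7 and 70.5 under KO and 61.1, 62.6 and 61.7 under WT. The KO libraries were slightly above the WT libraries, by 1.14 times in the mean. *Fabp5* stood at 63.0 to 99.1 under KO and 495 to 534 under WT, with means of 81.8 and 516, 6.31 times lower under KO. *Lpl* was at 452 ± 22.7 under WT and 62.9 ± 15 under KO (SD, n = 3), 7.19 times lower, and *Cd36* at 85.6 ± 4.20 and 12.1 ± 1.99, 7.06 times lower. *Aqp1* was 6.37 times lower, at 6.68 ± 2.11 against 42.5 ± 4.47. For *Fabp5*, *Lpl*, *Cd36* and *Aqp1* most of the factor is therefore that of the core sum, and *Aqp1* did not pass its own test. *Meox2* was at 0.752 against 3.60, *Rgcc* at 1.57 against 5.20 and *Cyyr1* at 0.596 against 3.16. With deposited FPKM in place of this scale, *Fabp4* was at 20.7 to 23.1 under KO and 18.7 to 19.0 under WT.

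**Figure D3:**
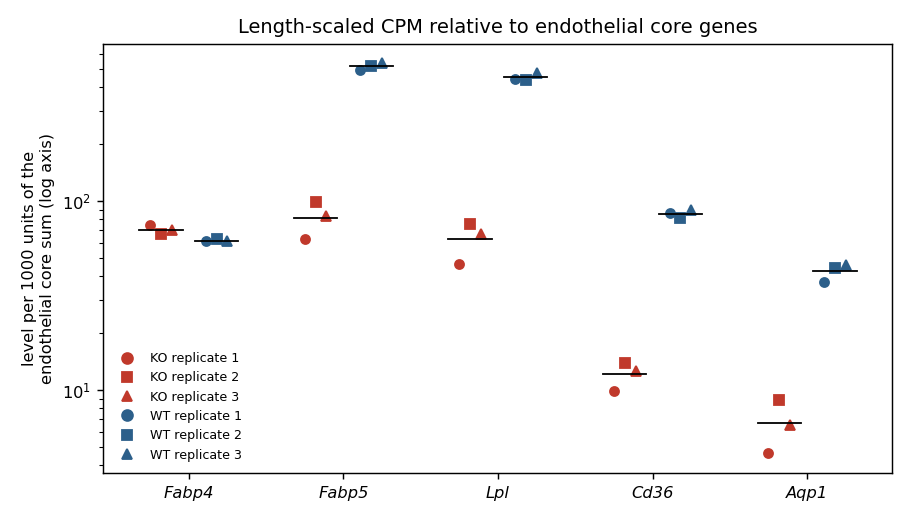
Level of 5 members per 1000 units of the summed level of 15 endothelial core genes in the same library (log axis), both as CPM per kilobase of the longest protein-coding transcript, with KO libraries in red, WT libraries in blue and a black bar at the mean. *Fabp4* lies at 66.7 to 74.5 under KO and 61.1 to 62.6 under WT, while *Fabp5*, *Lpl*, *Cd36* and *Aqp1* are 6.31 to 7.19 times lower under KO, where a gene at 1 level in all libraries would be 5.26 times lower.

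*Fabp4*, *Cd36* and *Lpl* are also genes of fat cells, and *Aqp1* and *Car4* are known from red cells or from fat and other tissues. Of 10 adipocyte markers, 7 were at no more than 3 counts in every library, namely *Adipoq*, *Plin1*, *Cidec*, *Lep*, *Cfd*, *Retn* and *Pck1*, which include the defining adiponectin and perilipin genes. The other 3 were the lipase *Lipe*, at -0.13 on the log2 scale (adjusted p = 0.624, edgeR), and *Cidea* and *Adrb3*, which did not pass the filter. The summed adipocyte level was 1.0 to 1.48 FPKM under KO and 1.29 to 1.60 under WT, with overlap. All 9 erythroid markers listed were at no more than 3 counts in every library, the globin genes *Hba-a1*, *Hba-a2*, *Hbb-bs* and *Hbb-bt* among them.

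Of 8 tested mural cell markers 4 fell and 2 rose, and their summed level was 78.1 to 84.6 FPKM under KO and 64.5 to 68.3 under WT. *Mcam*, which endothelial cells also express, was at 1.38, *Cspg4* at -0.43 and *Des* at -0.42, and *Higd1b* had no more than 3 counts in any library. Of 8 mesothelial markers 7 fell and 1 rose, among them *Msln* at -0.44, *Krt18* at -0.54 and *Upk1b* at -0.40. The part of these cell types in the members' values was not tested.

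The other genes of lipolysis, fatty acid transport and oxidation were read from a list of 51, of which 45 could be tested. The list also held the VEGF genes *Vegfb*, *Nrp1* and *Flt1* and the caveolar genes *Cav1*, *Cav2* and *Cavin1*. All of these but *Cav1* were called higher, *Vegfb* at 0.46, *Nrp1* at 0.45, *Flt1* at 2.12, *Cav2* at 1.48 and *Cavin1* at 0.36. The shares of the list are therefore not those of lipid genes alone. In the KO libraries 16 of the 45 were higher (35.6%, against 17.7% of all genes tested), 5 were lower (11.1%, against 12.5%) and 24 did not pass, with a median of 0.10. The 5 became 2 without WT replicate 3, 3 without KO replicate 1, KO replicate 3, WT replicate 1 or WT replicate 2, and 10 with upper quartile scaling. With the marker scaling 28 were higher and 0 lower. The 3 largest rises among the genes called were *Pparg*, the nuclear receptor that drives fat storage and *Fabp4* in fat cells, at 4.17 (SE 0.26, adjusted p = 2.2e-05, edgeR), *Ppargc1a*, a coactivator of oxidative metabolism, at 3.02, and *Flt1*, a VEGF receptor that is also a core endothelial gene, at 2.12. *Pparg* had 237, 213 and 259 counts under KO and 17, 18 and 6 under WT, and *Ppargc1a* had 54, 55 and 72 under KO and 7, 7 and 9 under WT. Neither gene overlapped between the labels.

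Of the 5 genes called lower, the 3 with the largest falls moved less than these. *Hadhb*, a subunit of the mitochondrial trifunctional protein, was at -0.54 (adjusted p = 0.0384, edgeR), *Lipg*, the endothelial lipase, at -0.46 (adjusted p = 0.0499) and *Lrp1*, a lipoprotein receptor, at -0.36 (adjusted p = 0.00842). *Slc27a1*, a fatty acid transporter, rose by 1.06 on the log2 scale (adjusted p = 6.9e-04, edgeR), with 35.6, 24.6 and 25.8 FPKM under KO and 13.2, 13.7 and 13.3 under WT. Of the partners of lipoprotein lipase, *Gpihbp1*, its anchor on the capillary wall, had 8, 3 and 4 counts under KO and 0, 2 and 2 under WT and was not tested. *Angptl4*, an inhibitor of the lipase, was at 0.08 (adjusted p = 0.685), and *Vldlr*, a receptor that works beside it, at -0.17 (adjusted p = 0.0712). *Fabp3*, the muscle form of the binding proteins, was at -0.49 (adjusted p = 0.0501) and did not pass. *Mgll*, monoacylglycerol lipase, named after its values were seen, had the lowest value of the list, -1.04 (adjusted p = 0.0566), and its libraries overlapped. Other genes past the test were the caveolar gene *Cav2*, the triglyceride synthesis gene *Dgat2*, the lipid droplet gene *Plin2* and the carnitine transferase gene *Cpt1a*, all higher under KO and named after their values were seen.

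**Figure D4:**
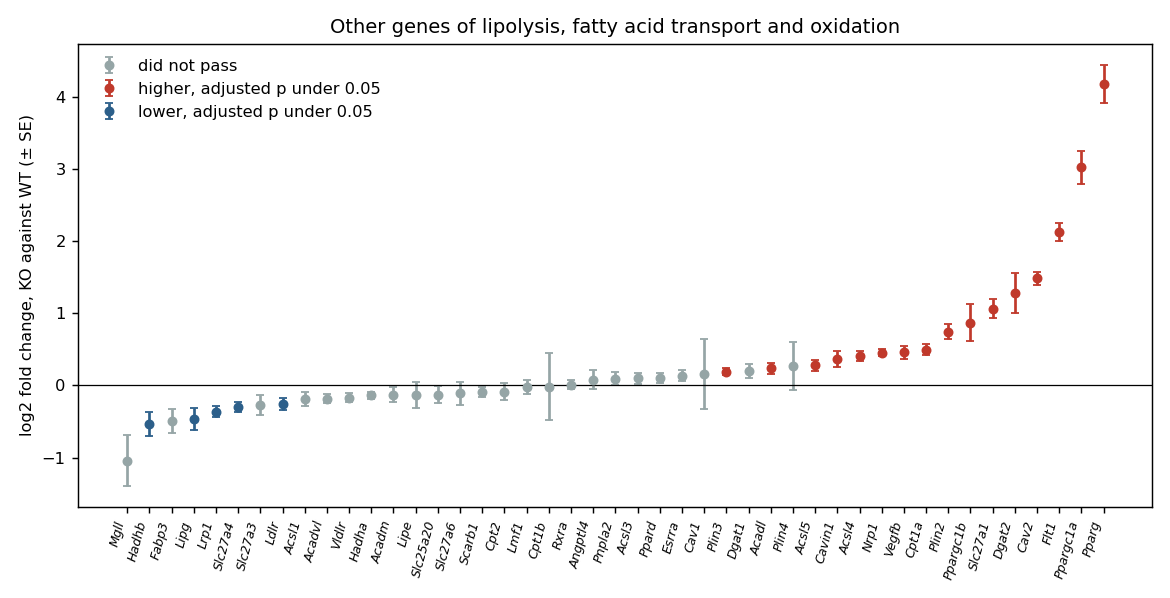
Log2 fold change of KO against WT with its standard error (vertical axis), ordered by value (3 libraries per label). Shown are the 45 tested genes other than the members, of lipolysis, fatty acid transport and oxidation, with VEGF and caveolar genes among them. The 16 genes in red were higher and the 5 in blue lower at an adjusted p under 0.05, and the 24 in grey did not pass, with *Pparg* highest at 4.17.

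Among relatives of the members, *Fabp4* was the only one of the 4 tested genes of its family that rose. *Fabp7*, the brain form, was at -0.52 (adjusted p = 0.236, edgeR) and did not pass. No tested aquaporin rose, and *Aqp5*, the water channel of glands, fell by 1.39 on the log2 scale (adjusted p = 0.025, edgeR), a call lost with DESeq2 and with the marker scaling. *Aqp3*, *Aqp4* and *Aqp9* were at 0.27, 0.17 and -0.47 and did not pass.

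Of the 8 carbonic anhydrases tested, 4 rose, *Car8* by 2.61, *Car2* by 1.92, *Car5b* by 1.36 and *Car13* by 0.43 on the log2 scale. This is 50.0% of 8 genes, where 17.7% of all genes tested were called higher, and with 8 genes nothing particular to the family is read from it. *Car6*, *Car9*, *Car11* and *Car12* were at -0.46, -0.12, 0.48 and -0.34 and did not pass. The capillary form *Car4* was thus near 0 counts in libraries where the cytosolic form *Car2* was higher under KO.

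A further list held 12 other genes known from heart capillaries, of which 8 were tested. Of these 3 were higher (37.5%, against 17.7% of all genes tested), 2 were lower (25.0%, against 12.5%) and 3 did not pass, and with 8 genes nothing particular to the list is read from these shares. Named here after their values were seen, *Btnl9* had 46, 79 and 97 counts under KO and 3, 0 and 0 under WT, and *Tspan7* was at 1.09. *Emcn*, which is also counted among the core endothelial genes above, was at 0.92, while *Cdkn1c*, at -0.69, and *Fcgrt*, at -0.38, were lower. *Cd300lg*, *Rbp7* and *Timp4* were at no more than 3 counts in every library, as *Car4* and *Tcf15* were.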

How the data were processed

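RNA was measured in 3 libraries labelled KO and 3 labelled WT, prepared with a stranded kit after oligo(dT) enrichment. HISAT2 was used by the authors to map the reads to mm10. For each of 34745 genes they deposited whole-number read counts without normalization. They also deposited FPKM values, which are those counts divided by a gene length and the library total. The counting tool, its strand setting and the annotation are not given in the sources used here; the submitters' processing notes also name GRCm38.p4 and edgeR. All count and FPKM columns belonged to these 6 samples. Counts were tested in edgeR 4.0.16 (R 4.3.3; filterByExpr, TMM, glmQLFit, glmQLFTest) with all 6 libraries and no covariate, and Benjamini-Hochberg adjustment over the 14084 of 20854 genes with any count that passed the filter. The biological coefficient of variation was 10.9%. Pairs of libraries with the same label differed at p under 0.05 in 22.4% to 32.2% of genes, so none was counted as a duplicate. Single values were also compared by exact permutation over libraries, on log2(CPM + 0.5). Ratios of 2 members were taken on counts with 0.5 added.

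The members, lists and tests were chosen with earlier results of these data known. The text names all 10 members, 6 preset genes and the 3 largest rises and 3 largest falls among the pathway genes that passed the test, the tested relatives of the members, and of each cell type list the 3 most abundant genes and those at 3 counts or fewer. *Adgre1* (-0.38), *Col1a2* (-0.38), *Col3a1* (-0.42), *Nppa* (-0.43) and *Actc1* (-0.42) complete that rule as log2 fold changes. Gene and transcript sequences came from GENCODE vM21. Alternatives changed the filter (none, or a mean CPM of at least 1), the normalization (library size, upper quartile, or a scaling on macrophage and cardiomyocyte markers), the tool (DESeq2 1.42.0, or limma 3.58.1 on log2 of FPKM plus 1 or plus 0.1), the design (a replicate block) and the samples (without 1 library each), or asked for a fold change above 2. The test was tested on simulated data for KO against WT over 13899 genes: it called 39.4% of 66 genes changed by 0.5 on the log2 scale, 70.3% of 64 changed by 1 and 98.5% of 66 changed by 2, and 6.21% of its calls were false. No other genes were changed there, while 30.2% of the genes tested in the data were called. The p that meets the adjusted threshold depends on that share, so these rates may not carry over to the data. Floors cover counting error only, and 3 libraries per label limit the precision. Plots used matplotlib 3.10.9 (Python 3.11.15).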

Additional observations from a re-analysis of the deposited data

How the results depend on the processing

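Of 119 values of the 8 tested members under alternatives, 109 kept their direction and their side of the threshold, and *Fabp4* kept both under all of its 15, at 1.96 to 3.00 on the log2 scale. The number of members called higher was 1 under all 16 settings. Scaling on macrophage and cardiomyocyte markers, which lifts the median of all genes to 0.36, left 0 members and 0 pathway genes called lower, with 28 pathway genes higher, and over all genes 8093 higher and 56 lower. Under it *Fabp5* was at 0.10, *Aqp1* at 0.075 and *Cyyr1* at 0.33, a change of sign, and the calls of *Lpl* and *Cd36* were lost, at -0.09 and -0.05. A fold change above 2 in addition left 844 genes higher and 38 lower, 0 members lower, and 6 pathway genes higher and 0 lower. The 5 pathway genes called lower became 3 with library size, 10 with the upper quartile and 3 with limma on either log2(FPKM + 1) or log2(FPKM + 0.1); the cause was not tested.

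With each library left out in turn, 1131 to 1614 genes were lower, the lowest without KO replicate 3, and the cause was not tested. Members called lower numbered 2 to 3, and pathway genes called lower 2 to 5. The call of *Fabp5* was lost without WT replicate 3, at -0.25 with an adjusted p of 0.0601 (edgeR). The *Cd36* to *Lpl* log2 ratio ran from -0.027, without KO replicate 1, to 0.086. *Cyyr1* ran from -0.19 to 0.16 and changed sign without KO replicate 1 (0.05), KO replicate 3 (0.03) and WT replicate 3 (0.16), and was at 1.4e-04 with limma on log2(FPKM + 0.1). *Rgcc* has no value with a mean CPM of at least 1, as it was not tested there. Low counts limit *Meox2*, *Rgcc* and *Cyyr1*.

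For KO and WT libraries that share a replicate number, the deviations from the label means had correlations of 0.002 to 0.035. For those with different numbers they were -0.028 to 0.021. Whether libraries of the same number shared a litter or a preparation was not tested. With the replicate number as a block, *Fabp4* was at 2.60, *Fabp5* at -0.27, *Cd36* at -0.42, *Lpl* at -0.46 and *Aqp1* at -0.30, 1 member was higher and 3 were lower, and 2316 genes were higher and 1591 lower.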
